A study of Mus musculus with 4 samples.

Results

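The genes described here encode the enzymes of glycolysis, the subunits and kinases of the pyruvate dehydrogenase complex, and a few neighbours of these steps, in testes of mice that lack Taf7l. The set was a list of 41 genes, 32 general ones and 9 sperm isozymes. The latter are close relatives of a general enzyme that are made in male germ cells, Pgam2 also in muscle. A gene was taken where a probe set carried its symbol alone, and the probe set with the highest mean signal led where a gene had several. That gave 78 probe sets for 37 of the 41 genes, in a table that covered 18193 genes with 45037 mouse probe sets. Gpi1, Pfkfb1, Eno1 and the sperm gene Gykl1 had no probe set with their symbol alone, so their signals were not analysed here.

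Whole testes of 8-week-old C57BL/6J males were compared on 4 Affymetrix arrays, 2 from wild type mice and 2 from mutant littermates labelled Taf7l knockout. Taf7l lies on the X chromosome and is a testis-enriched paralogue of Taf7, a subunit of the general transcription factor TFIID. The allele and the deleted part of the gene are not described in the sources used here. The labels of the second knockout array conflict, with replicate 2 in the title and biological replicate 1 in the description. Whether the knockout arrays come from separate animals is therefore not settled, and the p-values reflect array-to-array spread that may be technical. For Taf7l itself, wild type arrays read 829 and 818 and knockout arrays 80.6 and 72.5 (limma adjusted p = 0.0033), and where its probes lie relative to the deletion is unknown here. In whole testis, fewer cells of a type and less RNA per cell cannot be told apart.

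Glycolysis splits glucose into pyruvate and yields ATP in the cytosol, and the pyruvate dehydrogenase complex turns pyruvate into acetyl-CoA in mitochondria. Spermatids and sperm carry their own versions of many of these enzymes. Some, such as Pgk2 and Pdha2, are retrogenes of an X-linked parent, and the X chromosome is silenced during male meiosis. Several of the sperm enzymes are bound to the fibrous sheath of the tail, where glycolysis supplies ATP for swimming.

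No gene of the set passed the test between genotypes, but most had slightly lower signals in the knockout. The leading probe sets of 35 genes lay at or above a mean signal of 45.8, the median over all mouse probe sets and the lowest mean tested. Of these 35 genes, 0 were called at an adjusted p under 0.05 by limma, against 1.74% of all 12241 genes tested the same way (1.2% lower and 0.539% higher). An unadjusted p under 0.05 was reached by 12 lower genes and 1 higher gene (against 20.4% of all genes lower and 7.49% higher), and the smallest adjusted p was 0.061, for Pfkm. The 1 higher gene was Pdk4, which passed the filter only through its knockout arrays, so its difference is no evidence and 0 of the other 34 genes were higher at that level. Counting every tested probe set, 0 of 63 were called, against 1.39% of all 22519 (0.941% lower and 0.444% higher). At an unadjusted limma p under 0.05, 17 of the 63 were lower and 3 higher, with that of Pdk4 among the higher ones. Of all 22519 probe sets, 5572 reached that level in either direction. The knockout mean was lower for 27 of the 35 genes (27 of 34 without Pdk4), against 60.7% of all genes, and the median log2 difference was −0.13, against −0.05. After quantile normalization 22 were lower and 13 higher, against 50.4% of all genes lower. The trimmed mean signal, over all mouse probe sets but the outer 2% at each end, was itself lower in the knockout, at 509 and 509 on the wild type arrays against 465 and 481 (log2 −0.10), and its part in these differences was not tested. Both knockout arrays lay below both wild type arrays for 17 genes, against 38.7% of all genes, and above them for 6, Pdk4 included, against 19.6%.

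**Figure D1:**
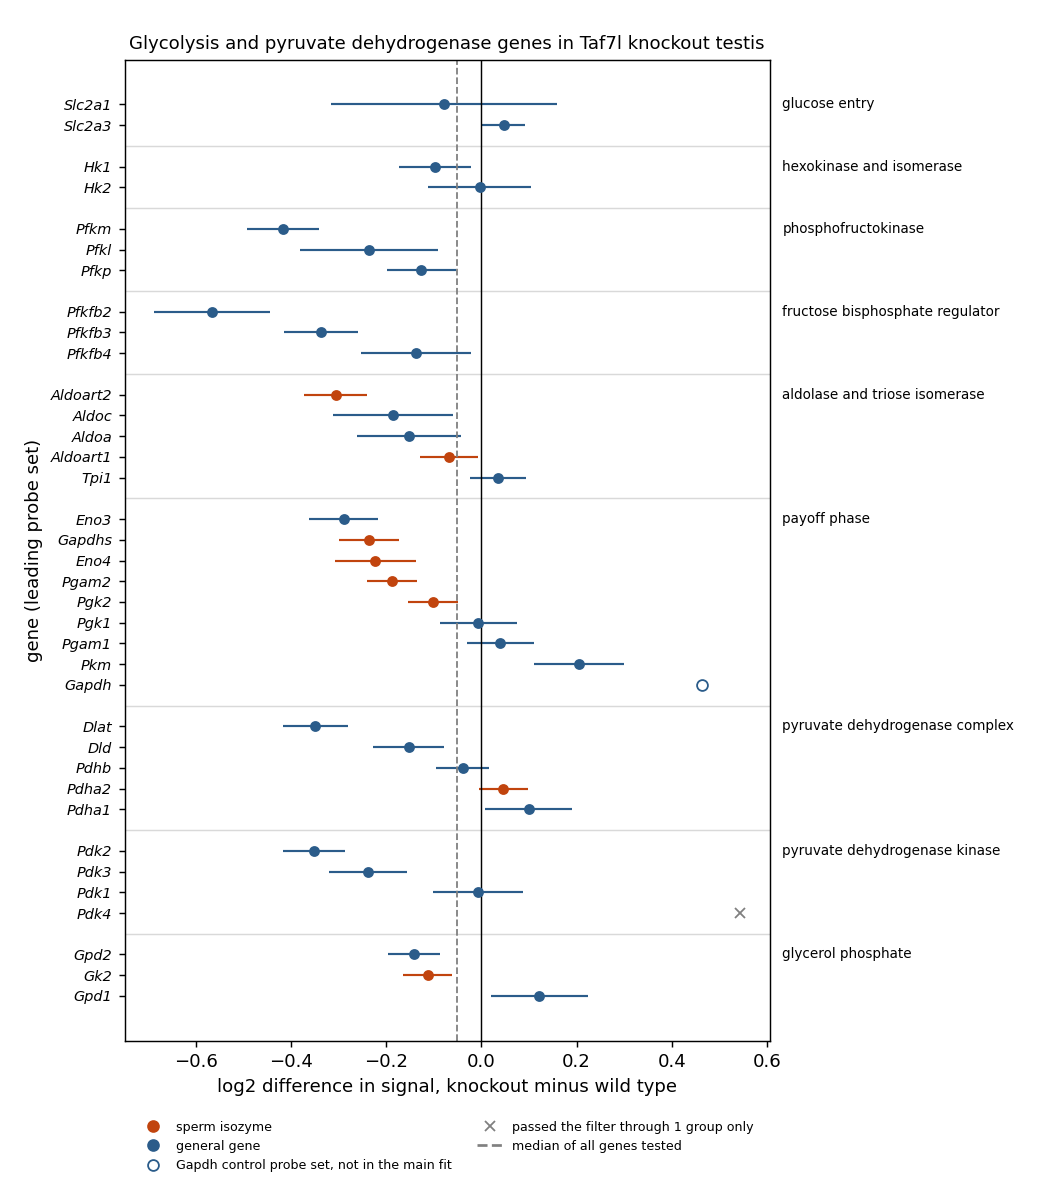
Log2 difference in probe set signal (knockout minus wild type, horizontal axis) at the leading probe set of each gene, grouped by role, with points for the mean of 2 arrays against 2 and bars for the limma standard error. Sperm isozymes are red and general genes blue. The phosphofructokinases and fructose bisphosphate regulators all lie left of 0, from −0.57 to −0.13, and Gapdh (open circle, a control probe set outside the main fit) lies at 0.46. Pdk4 (grey cross) passed the filter through its knockout arrays only.

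At the deposited scaling, the sperm isozymes and the general genes had similar medians. Of the 8 sperm isozymes tested, 7 were lower (87.5%), with a median log2 difference of −0.15 and a range from −0.31 to 0.05. Of the 27 general genes tested, 20 were lower (74.1%), with a median of −0.13. Without Pdk4, 20 of 26 were lower (76.9%), with a median of −0.13 and a range from −0.57 to 0.20. After quantile normalization the medians were −0.10 and −0.024, with 6 of 8 and 16 of 27 lower, against 50.4% of all genes. Without wild type replicate 1 the medians were −0.12 and −0.078. Knockout arrays lay below wild type arrays for 6 of the 8 sperm isozymes (75%) and 11 of the 27 general genes (40.7%), against 38.7% of all genes. The general share was thus near that of all genes, and the share among bright genes was not counted. All 8 sperm isozymes were bright, with mean signals between 2297 and 41906, and bright genes as a whole were lower more often. Among genes with a mean signal at or above the 75th percentile, 318, the median log2 difference was −0.10 and 68.1% were lower. The difference between both classes was described by counts and was not tested.

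The calls changed with the filter on dim probe sets. With the filter at the 75th percentile, limma called 8 of the 27 members left, all lower, against 18.7% of all genes called lower under that filter. They were Pfkm (adjusted p = 0.014), Pfkfb2 (0.016), Pdk2 (0.019), Dlat (0.020), the sperm isozyme Aldoart2 (0.022), Pfkfb3 (0.030), the sperm isozyme Gapdhs (0.032) and Eno3 (0.040). With the mean of all kept probe sets of a gene, 4 members were called lower (Pfkm, Pdk2, Dlat and Aldoart2), against 5.97% of all genes.

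Glucose enters cells through the facilitative transporters Slc2a1 and Slc2a3, the latter the form of neurons and germ cells. Slc2a3 had signals of 21759 and 22159 in wild type and 23061 and 22304 in the knockout at its leading probe set (log2 0.05, SE 0.046). Both knockout values were above both wild type values, by little. The next brightest, at 12942 and 12922 against 13361 and 12732, overlapped (log2 0.01), and the dimmest of its probe sets were lower. The first of these gave 2380 and 2515 against 2038 and 2103 (log2 −0.24, limma adjusted p = 0.11), and the second 1658 and 1893 against 1340 and 1669, with overlap (log2 −0.24). Both brighter probe sets are of types whose probes may read several transcripts or related sequences, and the first of the dimmer ones is not. Slc2a1, the transporter of the blood-brain barrier, was dim and scattered, at 76.7 and 123 against 97.9 and 86.2, and its groups overlapped. Its second probe set was tighter and separated the groups in the other direction, at 72.8 and 71.9 against 83.1 and 82.7 (log2 0.20, limma adjusted p = 0.26).

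Hexokinase phosphorylates the incoming glucose, and Hk1 is known for a germ cell form with its own first exon. Hk1 had 19218 and 17351 in wild type and 16332 and 17835 in the knockout, and the groups overlapped (log2 −0.10, SE 0.075, limma adjusted p = 0.48). A second probe set, at 12530 and 12367 against 9527 and 10394, separated the groups (log2 −0.32, SE 0.061, limma adjusted p = 0.064). The Hk1 transcripts read by each probe set are unknown here. Hk2, the insulin-responsive form of muscle and fat, was level at 241 and 214 against 217 and 237, with a 95% interval of −0.28 to 0.27 for the log2 difference.

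Phosphofructokinase commits sugar to glycolysis, and its 3 subunit genes were all lower without overlap of the groups, as were 38.7% of all genes. None of the 3 was called in the main fit. Pfkm, the muscle-type subunit, had 1880 and 1797 in wild type and 1319 and 1437 in the knockout. This was the smallest p in the set, a mean of 1839 ± 58.4 against 1378 ± 83.3 (SD, n = 2 each), lower by a factor of 1.34 (limma adjusted p = 0.061, log2 −0.42, SE 0.076). Pfkp, the platelet-type subunit, had 2437 and 2279 against 2232 and 2088 (log2 −0.13). Its other probe sets differed by −0.23 and −0.38. Pfkl, the liver-type subunit, was dimmer, at 159 and 124 against 121 and 118 (log2 −0.24, SE 0.14), so that 1 wild type array lay close to the knockout ones.

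The Pfkfb enzymes make and break down fructose 2,6-bisphosphate, the strongest activator of phosphofructokinase. All 3 that were tested had lower means at the leading probe set. Pfkfb2, the heart-type form, had 535 and 658 against 390 and 411, 1.48-fold lower with log2 at −0.57 (SE 0.12, limma adjusted p = 0.074). The groups were well apart there, but the next probe sets, at 248 and 280 against 251 and 334 and at 208 and 213 against 212 and 230, differed by 0.14 and 0.07 in the other direction. Pfkfb3, the inducible form, had 770 and 728 against 582 and 603, without overlap (log2 −0.34, SE 0.078, limma adjusted p = 0.081), while its dimmer probe set differed by −0.07. Pfkfb4, the form first described in testis, had 403 and 487 against 405 and 401, and its groups overlapped.

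Aldolase splits fructose 1,6-bisphosphate, and mouse sperm hold retrogene products, Aldoart1 and Aldoart2, beside Aldoa. Aldoart2 had 7515 and 7281 in wild type and 5719 and 6259 in the knockout, 1.24-fold lower with the groups apart (log2 −0.31, SE 0.066, limma adjusted p = 0.074). Aldoart1 had 5841 and 5664 against 5312 and 5672, and its groups overlapped (log2 −0.07). At its leading probe set Aldoa had 6464 and 6475 against 5231 and 6481. The lower mean there rested on knockout replicate 1, without which the difference was 0.0025. The next brightest, at 6341 and 6358 against 5267 and 6126, separated the groups. A dimmer one, at 1475 and 1357 against 1314 and 1369, did not. All 5 Aldoa probe sets were lower, by −0.16 to −0.08, and all are of a type whose probes may also read related sequences, which include the retrogenes. Aldoc, the brain-type enzyme, had 137 and 159 against 139 and 121, with overlap. Tpi1, which interconverts the triose products, had 10093 and 10257 against 10041 and 10823 (log2 0.03, 95% interval −0.11 to 0.18).

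In the steps that return ATP, the 4 sperm isozymes Gapdhs, Pgk2, Pgam2 and Eno4 had lower means, as had the muscle enolase Eno3, while Gapdh and Pkm had higher ones. Gapdhs, the sperm glyceraldehyde-3-phosphate dehydrogenase needed for sperm motility, had 23787 and 21454 in wild type and 19224 and 19112 in the knockout, 1.18-fold lower (log2 −0.24, SE 0.063, limma adjusted p = 0.10). Gapdh, the general enzyme, was readable alone only through 3 control probe sets of the array, which lie outside the main fit. The brightest gave 3652 and 3766 against 5227 and 5002, 1.38-fold higher, and the other 2 gave 3921 and 3976 against 4655 and 4815 and 3802 and 3729 against 4843 and 4691. Knockout arrays were above wild type arrays on all 3. With these 3 added to the fit, a choice made after the values were seen, limma gave adjusted p of 0.047, 0.073 and 0.055. The ratio of 3′ to 5′ signal, a sign of RNA quality, differed between the genotypes, for Gapdh 1.04 and 0.990 against 0.927 and 0.938, and for actin 2.09 and 1.999 against 2.42 and 2.18, and its part in these differences was not tested.

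Phosphoglycerate kinase makes the first ATP of this phase, with X-linked Pgk1 in most cells and autosomal Pgk2 in germ cells from meiosis onward. Pgk2 had 43938 and 42782 against 41944 and 38960, a little lower with the groups apart (log2 −0.10, SE 0.053, 95% interval −0.24 to 0.03). Pgk1 was level at its leading probe set, at 530 and 567 against 550 and 542 (log2 −0.01). Its other probe sets were higher without overlap, at 230 and 247 against 324 and 312 (log2 0.41, limma adjusted p = 0.076) and at 211.2 and 201.4 against 254 and 243 (log2 0.27). Neither was called, and both are of the type whose probes may read related sequences.

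Phosphoglycerate mutase moves the phosphate within the molecule. Pgam2, the form of muscle and sperm, had 17189 and 16647 against 15270 and 14434, without overlap (log2 −0.19, SE 0.053, limma adjusted p = 0.11), whereas Pgam1, the general form, had 1663 and 1550 against 1677 and 1624 (log2 0.04). Enolase follows, and Eno4, the enolase of the sperm tail, had 2568 and 2378 against 2242 and 1999.8 (log2 −0.22), while its other probe sets differed by −0.01 each. Eno3, the muscle form, had 1247 and 1188 against 1021 and 971, without overlap (log2 −0.29, SE 0.073, limma adjusted p = 0.094). Eno2, the neuronal form, lay under the filter, with signals from 21.2 to 24.5, and was not tested. Pkm, the pyruvate kinase that ends the pathway, was higher, at 3405 and 3618 against 3729 and 4387 (log2 0.20, SE 0.095, limma adjusted p = 0.26). Markers of skeletal muscle were dim, with 5 of 10 above the filter and a summed signal of 474 to 520 in wild type and 505 to 518 in the knockout.

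**Figure D2:**
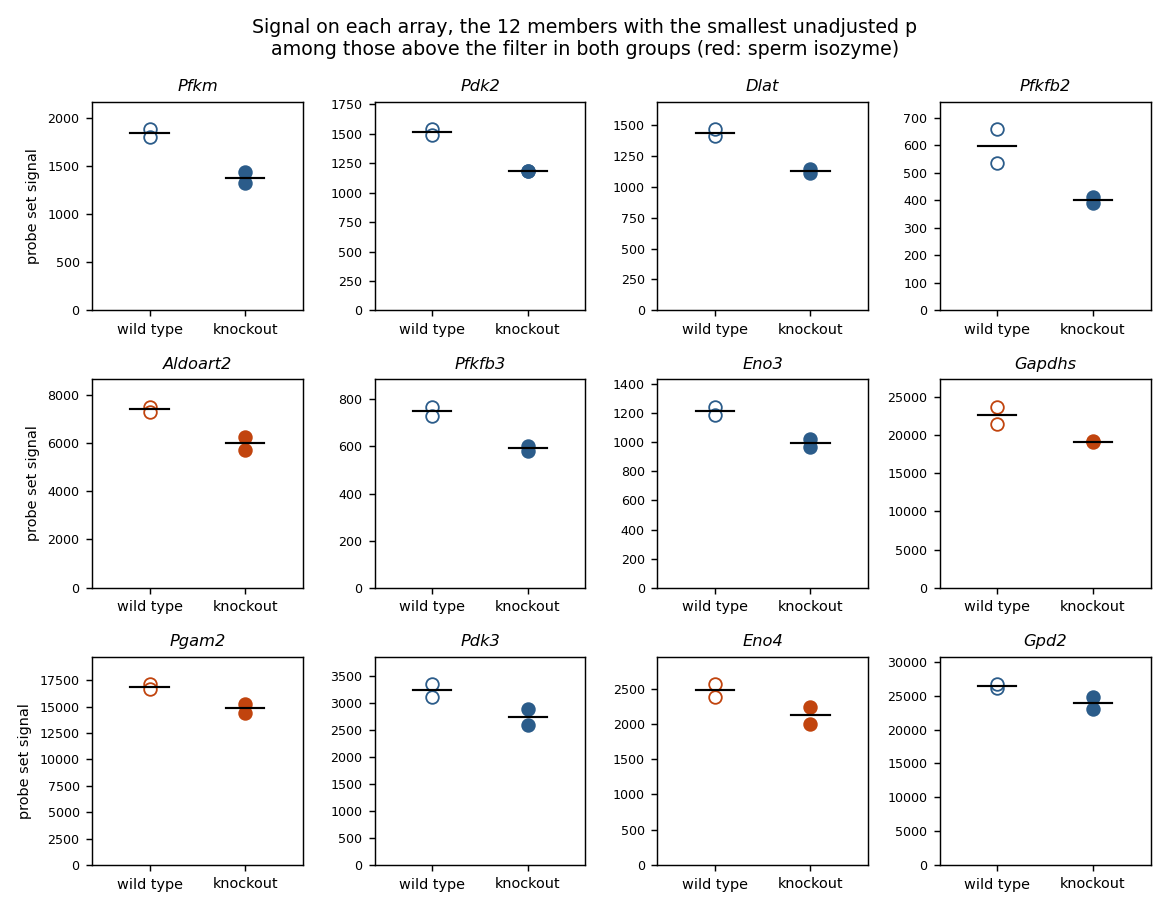
Probe set signal (vertical axis, linear, from 0) on each of the 2 wild type arrays (open circles) and 2 knockout arrays (filled circles) for the 12 genes with the smallest unadjusted p among those above the filter in both groups, chosen by that p, with lines at the group means. Sperm isozymes are red and general genes blue. The mean signal of Pfkm is 1839 in wild type and 1378 in the knockout, and that of Aldoart2 7398 and 5989.

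Within an array, 5 of 6 sperm isozymes stood lower against their general counterpart in the knockout, and 4 of 6 after quantile normalization, where Pdha2 over Pdha1 turned to 0.032. The log2 ratio of Gapdhs over Gapdh was 2.70 and 2.51 in wild type and 1.88 and 1.93 in the knockout, a difference of −0.70 on the log2 scale, the largest of the 6. Pgam2 over Pgam1 differed by −0.23 and Aldoart2 over Aldoa by −0.15, both without overlap. Pgk2 over Pgk1 (−0.09), Pdha2 over Pdha1 (−0.05) and Aldoart1 over Aldoa (0.08) overlapped between genotypes. Pgk2 over Pgk1 was −0.15 after quantile normalization and −0.33 with the mean of kept probe sets, both without overlap (exact permutation p = 0.333, two-sided). Exact permutation tests of 2 arrays against 2, two-sided, gave p = 0.333 for the first 3 pairs, the smallest this design allows, and an adjusted p = 0.667 for all 6. Each ratio sets different probes side by side, so only its change between arrays can be read.

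**Figure D3:**
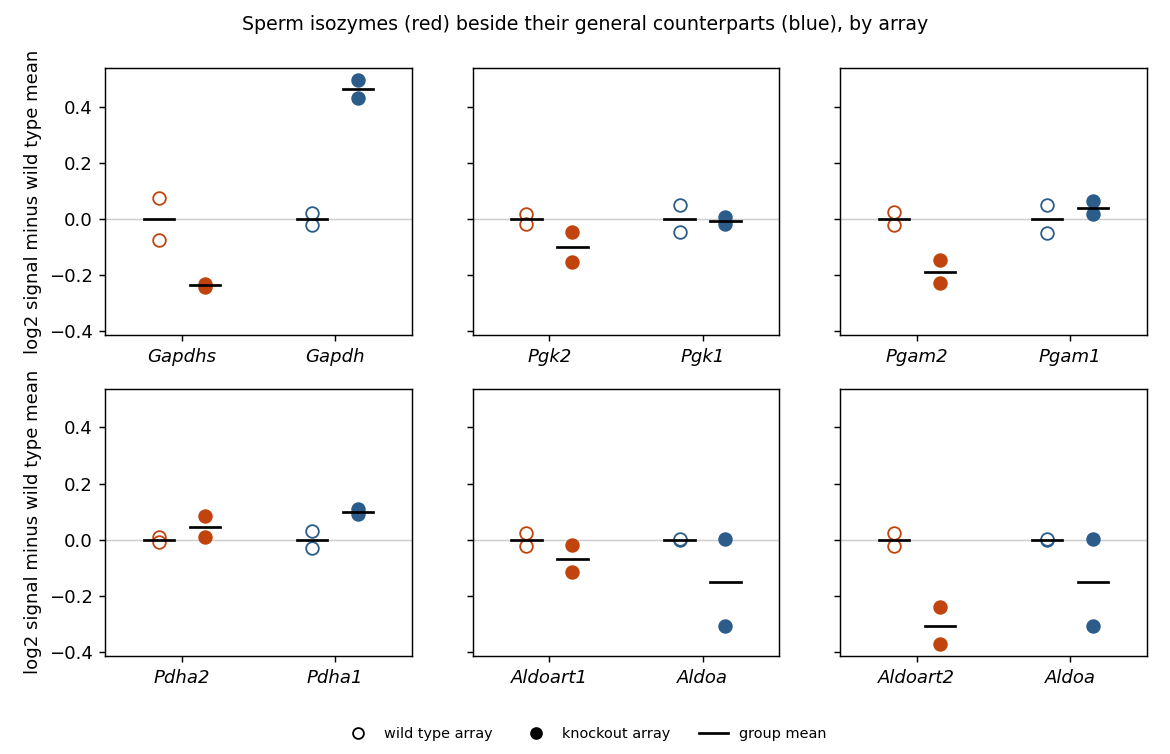
Log2 signal on each array minus the wild type mean of the same probe set (vertical axis), for 6 sperm isozymes (red) each beside its general counterpart (blue), with open circles for wild type arrays, filled circles for knockout arrays and lines for group means. The knockout means of Gapdhs and Gapdh lie at −0.24 and 0.46, while for Pdha2 and Pdha1 both means lie above the wild type, at 0.05 and 0.10.

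The sequences just before the start sites are shown for these enzyme pairs, since Taf7l belongs to the family of factors that act at core promoters. Each stretch is the 120 bases before a RefSeq start (build GRCm38.p6), read 5′ to 3′ on the gene's strand. Capitals mark TATAAA, the CCAAT box, the CRE TGACGTCA, a variant of it, TGATGTCA, and the GC box GGGCGG, each searched on both strands. The variant was added after the Gapdhs sequences were seen.
Gapdhs, first start, chr7:30739408-30739527, minus strand: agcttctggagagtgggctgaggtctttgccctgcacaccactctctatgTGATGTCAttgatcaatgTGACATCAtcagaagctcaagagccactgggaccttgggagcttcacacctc
Gapdhs, second start, chr7:30743682-30743801, minus strand: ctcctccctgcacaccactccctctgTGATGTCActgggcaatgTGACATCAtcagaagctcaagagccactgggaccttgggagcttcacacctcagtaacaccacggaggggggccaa
Gapdh, chr6:125165774-125165893, minus strand: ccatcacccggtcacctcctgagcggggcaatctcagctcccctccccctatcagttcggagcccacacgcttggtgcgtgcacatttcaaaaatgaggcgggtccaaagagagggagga
Pgk2, chr17:40208610-40208729, minus strand: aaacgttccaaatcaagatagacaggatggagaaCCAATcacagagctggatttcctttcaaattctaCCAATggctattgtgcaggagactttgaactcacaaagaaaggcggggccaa
Pgk1, chrX:106186980-106187099, plus strand: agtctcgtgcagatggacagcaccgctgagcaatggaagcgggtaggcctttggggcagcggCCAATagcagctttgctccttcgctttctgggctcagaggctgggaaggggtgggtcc
Pdha2, chr3:141212356-141212475, minus strand: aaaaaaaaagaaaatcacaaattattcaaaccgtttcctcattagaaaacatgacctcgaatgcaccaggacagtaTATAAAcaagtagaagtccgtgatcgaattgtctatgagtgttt
Pdha1, chrX:160138431-160138550, minus strand: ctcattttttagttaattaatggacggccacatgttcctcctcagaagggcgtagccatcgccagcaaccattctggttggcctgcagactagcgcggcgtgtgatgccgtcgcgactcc

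Both Gapdhs starts hold the variant and its reverse complement in the same spacing, Pgk2 holds 2 CCAAT boxes to the 1 of Pgk1, and TATAAA stands 44 bases before the Pdha2 start and not in the Pdha1 stretch. Over windows from 250 bases before to 50 after a start, 37 members had 57 windows, 8 of sperm isozymes and 49 of general genes. These members include Gpi1, Pfkfb1 and Eno1, whose signals were not analysed, and lack Aldoart1, Gykl1, Slc2a3 and Gpd1. Member windows on chr18 were left out of these counts, while the count of all windows was not filtered in that way. TATAAA was in 1 of the 8 and 3 of the 49, against 13.6% of all 32841 windows. The variant was in 3 of the 8, both Gapdhs windows and that of Pgam2, and in 1 of the 49, at the upstream start of Hk1, against 3.62% of all windows. Since the variant was picked from the Gapdhs windows, their matches were known beforehand, and the count is no measure of enrichment. The Gapdhs stretches also share a long run of bases and are not separate observations. The CRE itself was in none of them (1.79% of all), and the GC box was in 0 of the 8 and 24 of the 49 (35.7% of all). CCAAT was in 3 of the 8 and 20 of the 49 (37.4% of all). The number of CG dinucleotides per window had a median of 4 for sperm isozymes, 18 for general genes and 7 for all windows, and among the sperm isozymes Eno4 had the most, at 24, followed by Aldoart2 at 9. Windows of 1 gene can overlap, and a match describes letters only.

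The pyruvate dehydrogenase complex showed its lowest values at the E2 core rather than at the E1 subunits. Dlat, the E2 acetyltransferase that forms the core, had 1408 and 1464 in wild type and 1110.5 and 1144 in the knockout, 1.27-fold lower (log2 −0.35, SE 0.068, limma adjusted p = 0.067). Its other probe sets also lay lower without overlap, at 1230 and 1317 against 1034 and 1079 and at 217 and 214 against 147 and 160. Dld, the E3 dehydrogenase that this complex shares with other complexes, had 3450 and 3817 against 3186 and 3345 (log2 −0.15), with the groups apart by a small margin.

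The E1 subunits stayed close to the wild type. Pdha2, the germ cell E1 alpha subunit and the single sperm isozyme of the 8 with a higher mean, read 13325 and 13176 against 13337 and 14033 (log2 0.05, SE 0.051, 95% interval −0.08 to 0.18). Pdha1, its X-linked counterpart, was dim, at 137 and 143 against 149 and 151 (log2 0.10). Pdhb, the E1 beta subunit, had 5114 and 5061 against 4839 and 5062, and its groups overlapped (log2 −0.04). The 95% interval of the Pdhb difference ran from −0.18 to 0.10.

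Pyruvate dehydrogenase kinases switch the complex off by phosphorylating E1 alpha, and Pdk2 and Pdk3 were lower while Pdk1 was level. Pdk2, the widely expressed form, had 1539 and 1490 against 1186 and 1187, 1.28-fold lower with the groups far apart (log2 −0.35, SE 0.065, limma adjusted p = 0.063). Pdk3, an X-linked form prominent in testis, had 3115 and 3362 against 2595 and 2901, also without overlap (log2 −0.24, SE 0.083, limma adjusted p = 0.16). Pdk1 was level at 293 and 315 against 291 and 314 (log2 −0.01), with higher values at its other kept probe sets (0.10 and 0.29). Pdk4, the form induced by fasting, had 42.6 and 48.0 against 60.8 and 71.6. Its wild type mean of 45.3 lay under 45.8, the lowest mean tested, and it passed the filter only through the knockout arrays, so no difference or test is given.

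The glycerol phosphate genes link glycolysis to glycerol and to the mitochondrial electron chain. Gk2, a germ cell glycerol kinase retrogene, had 43570 and 41055 against 38204 and 40044, without overlap (log2 −0.11, SE 0.052, limma adjusted p = 0.26). Gpd2, the mitochondrial glycerol-3-phosphate dehydrogenase, had 26074 and 26769 against 24872 and 23069, also apart (log2 −0.14, SE 0.055, limma adjusted p = 0.20). Gpd1, the cytosolic dehydrogenase, had 214.3 and 225 against 253 and 226 (log2 0.12), and the closest arrays of the groups nearly touched.

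Probe sets of 1 gene differed in direction for 7 of the 17 genes with more than 1 above the filter. These were Pfkfb2, Tpi1, Pgk1, Pdk1, Slc2a1, Slc2a3 and Gpd1. All probe sets were lower for Hk1, Pfkl, Pfkp, Pfkfb3, Aldoa, Eno4, Pdhb and Dlat, and all were higher for Gapdh and Pdha1. The widest gap was that of Pfkfb2, from −0.57 to 0.14.

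**Figure D4:**
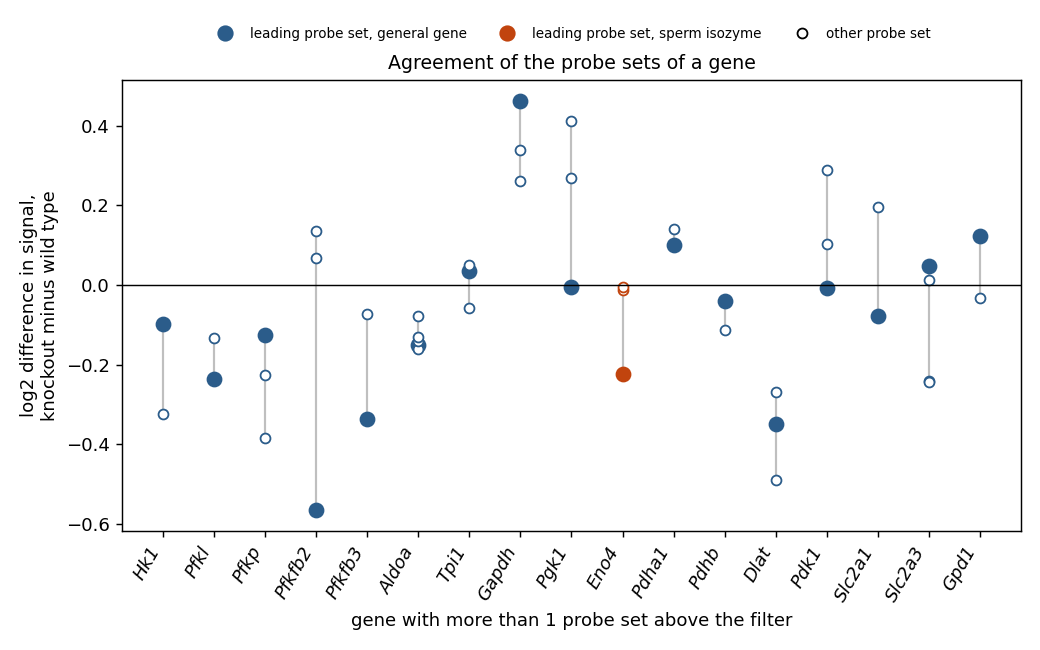
Log2 difference in signal (knockout minus wild type, vertical axis) of each probe set above the filter, for the 17 genes with more than 1, with a large filled point for the leading probe set, small open points for the others and a grey line over their range. Dlat, Gapdh and Aldoa keep 1 side of 0 at every probe set, while Pfkfb2 and Pgk1 spread over both, with Pgk1 between −0.01 and 0.41.

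Other genes of these pathways gave no call at their leading probe sets. Of 11 further genes of glucose entry and glycolysis, 5 were lower (median log2 0.0026). The most separated was Bpgm, which makes 2,3-bisphosphoglycerate and had 4816 and 4745 against 3591 and 3775 (log2 −0.38, SE 0.058, limma adjusted p = 0.052). Pgp, a phosphatase that clears side products, differed by −0.17 and Pgm1, phosphoglucomutase, by 0.24. Of 6 further genes around pyruvate dehydrogenase, 4 were lower (median −0.14), among them Pdhx, the E3-binding subunit (−0.19), the mitochondrial pyruvate carrier gene Mpc1 (−0.19) and the lipoate synthase gene Lias (−0.10). Of 4 further glycerol genes 3 were lower (median −0.11), with the aquaglyceroporin genes Aqp7 at −0.17 and Aqp9 at −0.21 and Gpd1l at 0.07.

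The tricarboxylic acid cycle, which takes up the acetyl-CoA, was split, with 9 of 17 genes lower and a median of −0.00042. Suclg2, a succinyl-CoA ligase subunit, was higher at 577 and 563 against 737 and 713 (log2 0.35, limma adjusted p = 0.074), Fh1, fumarase, was at 0.32 and Idh3b, an isocitrate dehydrogenase subunit, at −0.19. Of 10 pentose phosphate genes 7 were lower (median −0.09), with the transketolase-like genes Tktl1 at −0.45 and Tktl2 at −0.13 and the transaldolase gene Taldo1 at 0.21. Of 11 genes of gluconeogenesis and glycogen 4 were lower (median 0.01), with the liver glycogen phosphorylase gene Pygl at −0.40, Fbp2 at 0.39 and G6pc3 at −0.19. Of 9 lactate genes 6 were lower (median −0.02). There the chaperone gene Emb was at 0.46, the dehydrogenase gene Ldhb at 0.18 and the transporter gene Slc16a7 at −0.13.

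Of all cell type markers, 1 passed the test, the Leydig cell gene Cyp17a1 (log2 0.34, limma adjusted p = 0.0496). Of all genes tested 1.74% were called, so a single call in lists of this size is no result about Leydig cells. Several lists leaned one way. All 10 round spermatid markers were lower (median log2 −0.23), with a summed signal of 89832 to 93693 in wild type and 75598 to 83826 in the knockout, and 8 of 10 elongating spermatid markers were lower (median −0.11), with sums of 547098 to 564951 and 514064 to 535212. Of the tested markers of Leydig cells 5 of 6 were higher (median 0.26, sums 16538 to 16742 and 20543 to 21008), of Sertoli cells 7 of 10 (median 0.05, sums 51023 to 53429 and 62404 to 66135) and of macrophages 7 of 8 (median 0.12, sums 3615 to 3621 and 3943 to 4185). The Sertoli sums were largely Clu (35026 and 32203 against 43413 and 37656) and Ctsl (13084 and 13947 against 17649 and 19127). The other 3 of the 10 tested Sertoli markers were lower. Markers of spermatocytes (5 lower, 5 higher), spermatogonia (3 and 5) and peritubular myoid cells (2 and 4) were mixed. Adipocyte markers were lower in 5 of 6 (median −0.36), where wild type replicate 2 stood apart with a sum of 4207 against 1024 on the other wild type array and 1126 and 1830 in the knockout. The same array stood apart in epididymis markers, at 892 against 452, 424 and 413. The medians of the sperm isozymes and of the general genes lay between those of round spermatids and elongating spermatids. The part of these markers in the differences above was not tested.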

How the data were processed

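Whole testis RNA was read on 4 Affymetrix arrays, 2 per genotype. The deposited table gives a linear intensity (probe set signal) per array, made with MAS5 per the submitters' processing notes; version, scaling target and any step between arrays are not given in the sources used here. Gene symbols came from GEO's platform annotation and were updated by identifier against RefSeq (GRCm38.p6): 34945 probe sets had 1 symbol, 932 several and 9160 none, and 34741 matched. The 64 control probe sets, 3 of them for Gapdh, were left out of the main fit.

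The log2 of each deposited signal was used (offset 0). The 22519 mouse probe sets with a mean signal at or above the median, 45.8, were fitted with limma 3.58.1 in R 4.3.3 (lmFit, eBayes with a variance trend), genotype as the only term, two-sided, with Benjamini-Hochberg adjustment over all of them and calls below an adjusted p of 0.05. There were 2 residual and 3.17 prior degrees of freedom. The fitting code was tested on simulated signals with known changes. Intervals are limma's 95% intervals. The number of arrays limits the precision. Members and gene lists were chosen with earlier results of these data known. Every member is named, as are Taf7l and, per pathway list, called genes or the 3 with the smallest p. Promoter windows came from RefSeq. No pair with Eno1 or Gk was made, as neither had a probe set with its symbol alone.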

Additional observations from a re-analysis of the deposited data

How the results depend on the processing

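The limits are the 2 arrays per group, an unstated scaling, and probe sets that may read related genes. Over all probe sets limma called 312, of which 32.1% were higher. It called 148 after quantile normalization (61.5% higher), 646 with median centring (22.8%), 0 with no filter (where 6192 had an unadjusted p under 0.05), 2375 at the 75th percentile filter (18.2%), 36 with no trend in the variance (69.4%), 541 with the replicate number as a block (33.1%) and 965 with the mean of kept probe sets per gene (24.2%). With any 1 array left out it called 0, with adjusted p of at least 0.087 among the members and between 3084 and 5500 probe sets at an unadjusted p under 0.05. The count of members called, 0, became 8 with the 75th percentile filter, 4 with the mean of kept probe sets and 1 (Gapdh) with its control probe sets in the fit, an alternative chosen after seeing the data. It stayed 0 in the other alternatives, the replicate block included (smallest adjusted p = 0.055). Same-numbered arrays deviated together with a correlation of 0.03 over probe sets, and the labels give the number no other meaning.

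Members higher numbered 13 after quantile normalization and 5 with the 75th percentile filter, which tests fewer genes. The sperm median was −0.10 after quantile normalization and −0.11 with the mean of kept probe sets, and the general median −0.024 after quantile normalization, when the median of all genes was −0.0017. Without 1 array the sperm median ran from −0.19 to −0.12 and the general one from −0.12 to −0.078. After quantile normalization the direction turned for Hk2 (0.024), Aldoart1 (0.048), Pgk1 (0.057), Pdhb (0.082), Pdk1 (0.035) and Pdha2 over Pdha1 (0.032). With the mean of kept probe sets it turned for Pgk1 (0.23), Pdk1 (0.13), Slc2a1 (0.059) and Slc2a3 (−0.11), and without probe sets that read several transcripts for Slc2a3 (−0.24). With 1 array left out it turned for Hk2 (−0.089 to 0.082), Aldoa (−0.31 to 0.0025), Tpi1 (−0.019 to 0.089), Pgk1 (−0.054 to 0.042), Pgam1 (−0.011 to 0.091), Pdk1 (−0.061 to 0.048), Slc2a1 (−0.42 to 0.26) and Aldoart1 over Aldoa (−0.023 to 0.19). The cause was not tested. The other members, Gapdh over its range of 0.36 to 0.59 included, kept their direction in every alternative run.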
